A study of Mus musculus with 6 samples.

Results

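The liver makes most of the proteins that build, modify and clear high-density lipoproteins (HDL). The 10 genes described here encode the paraoxonases (*Pon1*, *Pon2*, *Pon3*), the platelet activating factor acetylhydrolase (PAF-AH, *Pla2g7*), the enzymes and transfer protein that remodel HDL lipids (*Lcat*, *Pltp*, *Lipc*, *Lipg*), the HDL receptor SR-BI (*Scarb1*) and the HDL carrier of sphingosine-1-phosphate (*Apom*). They were chosen by name, as HDL-bound enzymes, remodelling lipases and the receptor, and all 10 were found among the 16123 genes of the deposited comparison of WT with KO liver.

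The samples were 6 RNAseq libraries of whole liver, 3 from wild-type (WT) mice of the strain labelled C57BL/6Rj and 3 from *Txndc5*-deficient (KO) mice of the line labelled C57BL/6JRj-Txndc5<em2Mdnp>/Ciba. All were 2-month-old males at the start, were fed a purified diet for 4 weeks and were fasted for 16 h, so every value below belongs to fasted liver. The study's methods state that each library was a pool of 3 mice. They also state that the KO line descends from 1 founder carrying a germline deletion of exon 3, so the loss of TXNDC5 was not limited to hepatocytes. TXNDC5 is a protein disulfide isomerase of the endoplasmic reticulum, the compartment through which every secreted protein of this group passes.

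HDL particles leave the liver as small discs of apolipoprotein A1 and phospholipid. Lecithin-cholesterol acyltransferase (LCAT) esterifies their cholesterol and lets them grow into spheres, the phospholipid transfer protein (PLTP) moves phospholipids onto and between particles, and hepatic and endothelial lipase hydrolyse their lipids. SR-BI on hepatocytes takes up the cholesteryl esters. PON1, PON3 and PAF-AH travel on lipoproteins and hydrolyse oxidized lipids or lactones, whereas PON2 remains inside cells.

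The paraoxonase genes lie side by side on the minus strand of chromosome 6 in the mouse build GRCm38, in a stretch of 130 kb between 5168090 and 5298455. *Pon1* spans 5168090 to 5193946, *Pon3* 5220852 to 5256286 and *Pon2* 5264147 to 5298455 (GENCODE M21). Their levels in these livers differed widely (below), so the 250 bases before the RefSeq start of each gene are shown, with *Apom*, a second abundant member, for comparison. They are given 5′ to 3′ on the coding strand of GRCm38.p6, and capitals mark any match, on either strand, to the GC box GGGCGG, the TATA-like TATAA, the CCAAT box or the nuclear receptor half-site AGGGTCA.
Pon1, chr6:5193947-5194196: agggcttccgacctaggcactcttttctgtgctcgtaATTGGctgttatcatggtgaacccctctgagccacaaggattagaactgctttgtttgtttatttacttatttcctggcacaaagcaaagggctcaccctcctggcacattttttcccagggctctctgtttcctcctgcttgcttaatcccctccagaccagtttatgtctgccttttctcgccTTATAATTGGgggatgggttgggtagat
Pon3, chr6:5256234-5256483: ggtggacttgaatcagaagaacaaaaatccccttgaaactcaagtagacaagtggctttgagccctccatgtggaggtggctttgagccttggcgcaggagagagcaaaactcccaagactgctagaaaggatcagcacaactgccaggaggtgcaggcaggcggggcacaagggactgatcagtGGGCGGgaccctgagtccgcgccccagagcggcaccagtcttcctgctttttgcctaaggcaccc
Pon2, chr6:5298341-5298590: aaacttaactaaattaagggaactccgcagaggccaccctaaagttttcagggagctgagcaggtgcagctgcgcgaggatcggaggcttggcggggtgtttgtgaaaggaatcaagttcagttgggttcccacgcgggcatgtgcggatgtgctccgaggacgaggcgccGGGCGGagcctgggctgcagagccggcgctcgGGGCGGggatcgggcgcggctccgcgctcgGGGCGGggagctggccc
Apom, chr17:35131802-35132051: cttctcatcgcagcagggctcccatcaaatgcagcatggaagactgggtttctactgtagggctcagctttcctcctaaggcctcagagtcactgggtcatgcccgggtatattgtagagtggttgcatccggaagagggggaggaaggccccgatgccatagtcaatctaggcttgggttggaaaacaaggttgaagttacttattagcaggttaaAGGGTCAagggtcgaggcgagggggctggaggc

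The *Pon1* window held 47.6% G and C, a share below the median of 52.4% over the 32851 promoter windows of the same table. It held a TATAA, with its overlapping reverse complement, and 2 CCAAT boxes, 1 of which shares bases with the TATAA. The *Pon2* window held 65.6% G and C, 3 GC boxes and none of the other motifs. The *Pon3* window, at 56.8% G and C, held 1 GC box. The *Apom* window held a single AGGGTCA and no other match. Of all windows of this length, 32.7% held GGGCGG, 22.8% TATAA, 33.8% CCAAT and 3.63% AGGGTCA. The windows are set by the RefSeq start, and GENCODE starts some of these genes farther upstream. Of the 250 bases, 249 of *Apom*, with its AGGGTCA, lie inside the GENCODE gene, as do 115 of *Pon2*, with all 3 GC boxes, and 53 of *Pon3*, without its GC box. The *Pon1* window lies wholly outside. These matches describe the letters of the windows, and binding was not measured.

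Each library held between 44.04 and 46.05 M clean reads, of which between 91.63% and 93.66% were mapped. The share of ribosomal RNA reached 0.67% in WT pool 1 and 0.69% in WT pool 5, against 0.26% to 0.40% elsewhere. Its part in the ratios was not tested. For each gene the authors deposited 1 expression value per genotype, combined over its 3 libraries and given in reads after division by a size factor. The midpoint of both values is the mean over the 6 libraries, and their log2 ratio is the one that the authors' DESeq2 comparison drew toward 0. The targeted gene, *Txndc5*, stood at 2697 in WT against 90.8 in KO (log2 ratio −4.89). The p-values of the authors' own comparison are not used here, and with 1 value per genotype neither a spread between pools nor a test was calculated for 9 of the 10 genes. *Pla2g7* was read weakly enough for its whole reads in each library to be recovered.

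None of the 10 genes reached a log2 ratio of 0.5 in either direction. Their ratios ran from −0.29 for *Apom* to 0.35 for *Lipg*, with a median of −0.06. Over the 14106 genes that averaged at least 1, the median was −0.05, and 3.23% of genes were at least 0.5 higher and 8.32% at least 0.5 lower in KO. The median size of the ratio, whatever its sign, was 0.17 for the 10 genes and 0.18 for all of these genes. It depends on level. It was 0.13 among genes averaging at least 1000, 0.16 between 100 and 1000 and 0.24 between 10 and 100. Of the 10 genes, 6, 3 and 1 lie at these levels. The shares of genes at least 0.5 from 0 were 3.68%, 6.59% and 17.8% in the same order. At a limit of 0.25, 1 of the 10 genes (*Lipg*) was higher and 2 (*Apom* and *Pltp*) were lower, against 13.9% and 23.6% of all genes. With 10 genes, these counts lie near those shares.

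**Figure D1:**
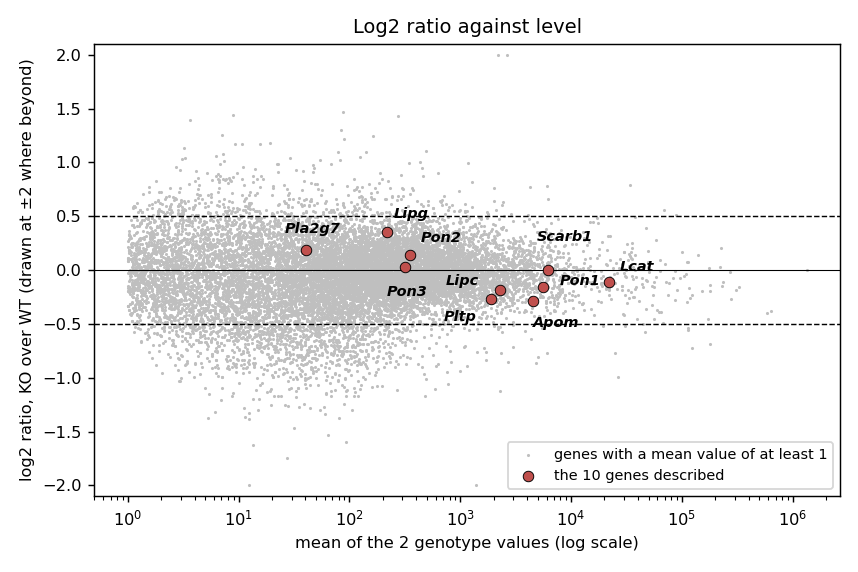
Log2 ratio of KO over WT (vertical axis) against the mean of the 2 genotype values (horizontal axis, log scale) for the 14106 genes that averaged at least 1 (grey) and the 10 genes described (red), with dashed lines at ±0.5. The 10 genes lie between −0.29 and 0.35, inside the cloud of genes with similar levels.

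The sign of the ratio followed the level within the group. The 6 genes that averaged at least 1000 (*Lcat*, *Scarb1*, *Pon1*, *Apom*, *Lipc* and *Pltp*) had ratios below 0, although that of *Scarb1* was close to 0. The 4 genes with a lower mean (*Pon2*, *Pon3*, *Lipg* and *Pla2g7*) had ratios above 0. Among all 1765 genes that averaged at least 1000, 57.7% had a ratio below 0 and the median was −0.04. Among the 5298 genes with a mean between 100 and 1000, 55.3% were below 0. Among the 4304 genes with a mean between 10 and 100, where *Pla2g7* lies, 60.8% were below 0. The 6 stronger genes thus had the sign of most genes at their level, and the 4 weaker genes had the less common sign. The split of signs by level was not tested. Centring all ratios on the median of −0.05 turned 1 sign, that of *Scarb1*.

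Divided by the length of their annotated exons, the genes spanned more than 3 orders of magnitude. In WT the order was *Lcat* (17125 per kb), *Apom* (4957), *Pon1* (2035), *Lipc* (1136), *Pltp* (804), *Scarb1* (727), *Pon3* (92.7), *Pon2* (45.6), *Lipg* (40.4) and *Pla2g7* (13.1). In KO the order differed by 2 swaps of neighbours. *Scarb1* (725 per kb) lay above *Pltp* (666 per kb), and *Lipg* (51.3 per kb) lay above *Pon2* (50.3 per kb). Those neighbours are close, and no spread is at hand to separate them. The position of *Pon2* and *Scarb1* also depends on the length used, because the annotation gives both genes long exons that the authors' gene lengths leave out. With the authors' lengths *Scarb1* stood at 2486 per kb in WT, above *Lipc* (1263) and *Pltp* (1140).

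**Figure D2:**
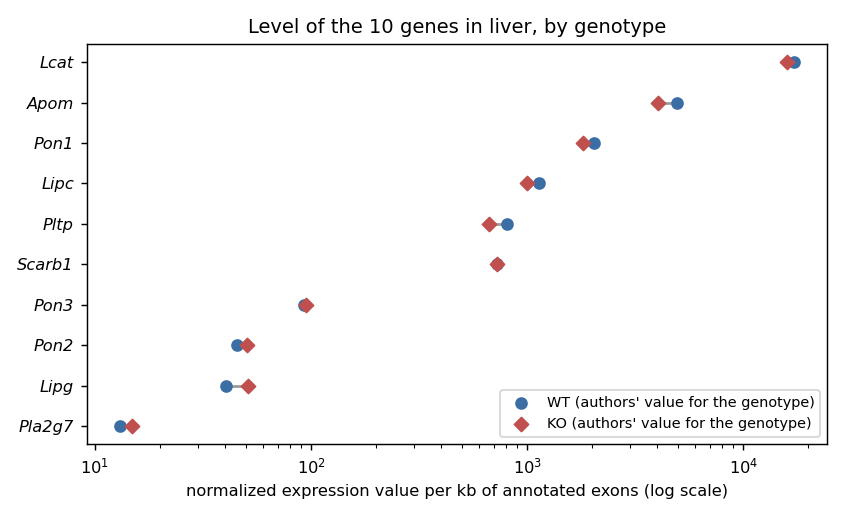
Expression value per kb of annotated exons (horizontal axis, log scale) of the 10 genes in WT (blue circles) and KO (red diamonds), 1 authors' value per genotype and so no error bars. The genes range from 13.1 per kb for *Pla2g7* to 17125 per kb for *Lcat* in WT, and within each gene the genotypes lie close together compared with this range.

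Among the paraoxonases, *Pon1* (NCBI Gene 18979), whose product is the arylesterase and lactonase of plasma HDL, stood at 5896 in WT against 5274 in KO. That is a KO over WT ratio of 0.895 and a log2 ratio of −0.16, and 55.4% of all genes averaging at least 1 had a ratio at least as far from 0. *Pon3* (NCBI Gene 269823), a lactonase that is also carried on HDL, stood at 314 in WT against 321 in KO (log2 ratio 0.03). *Pon2* (NCBI Gene 330260), the intracellular member, stood at 335 in WT against 369 in KO (log2 ratio 0.14). All 3 ratios were small, and the pair of weaker genes did not share the sign of *Pon1*.

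Per kb of annotated exons *Pon1* stood 22.0-fold above *Pon3* in WT and 19.2-fold in KO, and with the authors' gene lengths 21.9-fold and 19.1-fold. *Pon1* stood 44.6-fold above *Pon2* by annotated exons in WT and 21.2-fold by the authors' lengths. The predominance of *Pon1* over both of its neighbours therefore held in both genotypes and with both lengths, while the order of *Pon2* and *Pon3* did not (*Pon2* over *Pon3* in WT, 0.492 and 1.03). The annotation places 680 bases of a transcript on the other strand (Gm44424, not in the table) within the 7339 exonic bases of *Pon2*. The library protocol in the labels names no step that keeps the strand, and whether reads of that transcript were counted for *Pon2* was not tested.

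The genes next to the cluster were read weakly. On the *Pon1* side, *Ppp1r9a*, which encodes the neuronal scaffold neurabin, had 43.7 in WT and 27.4 in KO (log2 ratio −0.67), and the imprinted gene *Peg10* had 3.65 and 2.07 (−0.82). On the *Pon2* side, *Asb4*, which encodes a subunit of a ubiquitin ligase, had 2.01 in WT and 1.40 in KO (−0.52). Next to it *Pdk4*, the pyruvate dehydrogenase kinase that rises in fasting, had 55.1 and 73.9 (0.42). The log2 ratios of the 4 neighbours were thus farther from 0 than those of the 3 paraoxonases between them. For *Ppp1r9a* and *Pdk4* the level sets a background. Of the 4304 genes with a mean between 10 and 100, 17.8% were at least 0.5 from 0 and 48.1% at least 0.25. *Peg10* and *Asb4* were read more weakly still, and no such share was taken at their level. For *Asb4* the recovered reads were 3, 1 and 4 in the WT libraries and 1, 1 and 0 in the KO libraries.

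PAF-AH, the product of *Pla2g7* (NCBI Gene 27226, chromosome 17 from 43568098 to 43612201, plus strand), cleaves the acetyl group of platelet activating factor and short chains of oxidized phospholipids. Macrophages, in liver the Kupffer cells, are known as its main source. It was the weakest of the 10 genes, with 38.0 in WT and 43.3 in KO in the deposited table (log2 ratio 0.19). An antisense transcript, 1700071M16Rik, which is not in the table, covers 319 of its 2905 exonic bases.

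The reads of *Pla2g7* in each library were recovered as the only set of 6 whole numbers that gives its deposited mean. The libraries bear no pool number and are named by their size factor, the divisor applied to their reads. These size factors varied relatively more than the clean reads, which lay between 44.04 and 46.05 M, and the reason was not tested. In WT, 53, 21 and 37 reads were found at size factors of 1.22, 0.88 and 0.82, and in KO, 63, 48 and 33 reads at size factors of 1.31, 1.04 and 0.89. After division the WT libraries had 43.3, 23.9 and 45.2 normalized reads and the KO libraries 48.0, 46.3 and 37.3. The lowest library was a WT one, and the lowest KO library lay below the other 2 WT libraries, so the genotypes overlapped.

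The mean was 37.5 ± 11.8 normalized reads (SD, n = 3 libraries) in WT and 43.9 ± 5.78 (SD, n = 3 libraries) in KO. The difference of 6.40 was smaller than the spread between the WT libraries (two-sided exact permutation test, p = 0.5, where 3 libraries against 3 allow no p below 0.1). In limma on log2(normalized reads + 1) the difference was 0.27 with a standard error of 0.42 (adjusted p = 0.999 over 3301 genes). That comparison called 1 gene, or 0.0303%, and it was not *Pla2g7* but *Moap1*, which is named after its values were seen because it was the only call. Leaving out the WT library of size factor 0.88 gave a difference of −0.391 normalized reads, and the limma difference of *Pla2g7* was −0.02, so its sign rested on that library. Counting error alone spans 13.0 to 32.1 reads for the 21 reads of that library (95% exact Poisson interval).

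Kupffer cell markers were set beside *Pla2g7*. All 12 of the list were in the table, none was at 0, and 9 had a ratio above 0 and 3 below, with a median log2 ratio of 0.17 that lies near the 0.19 of *Pla2g7*. Over all genes averaging at least 1, 57.5% were below 0. The values of the 12 markers summed to 5843 in WT and 6515 in KO. *Clec4f*, the C-type lectin that marks resident Kupffer cells, had 895 in WT and 865 in KO, whereas the scavenger receptor gene *Marco* had 47.8 and 73.5 (log2 ratio 0.62) and *Adgre1*, which encodes F4/80, had 79.2 and 112 (0.50). Their part in the ratio of *Pla2g7* was not tested. In whole liver, a change in the number of macrophages and a change in RNA per macrophage cannot be told apart.

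Reads were recovered for *Marco*, *Timd4* and *Cd163* among these markers. Their summed normalized reads were 125, 179 and 142 in the WT libraries and 187, 147 and 238 in the KO libraries, in the order of size factors given above. The WT library in which *Pla2g7* was lowest had the highest marker sum of its genotype, but the 3 markers did not share 1 order. That library was highest in WT for *Marco* (69.4, against 13.9 and 48.9) and *Timd4* (48.9, against 37.6 and 47.7). It was not for *Cd163* (60.3, against 73.5 and 45.2). Whether the markers and *Pla2g7* vary together was not tested. The genotypes overlapped, at 148 ± 27.4 (SD, n = 3 libraries) in WT and 191 ± 45.9 (SD, n = 3 libraries) in KO (two-sided exact permutation test, p = 0.2). *Marco* varied most, from 13.9 to 69.4 in WT and from 49.2 to 130 in KO.

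**Figure D3:**
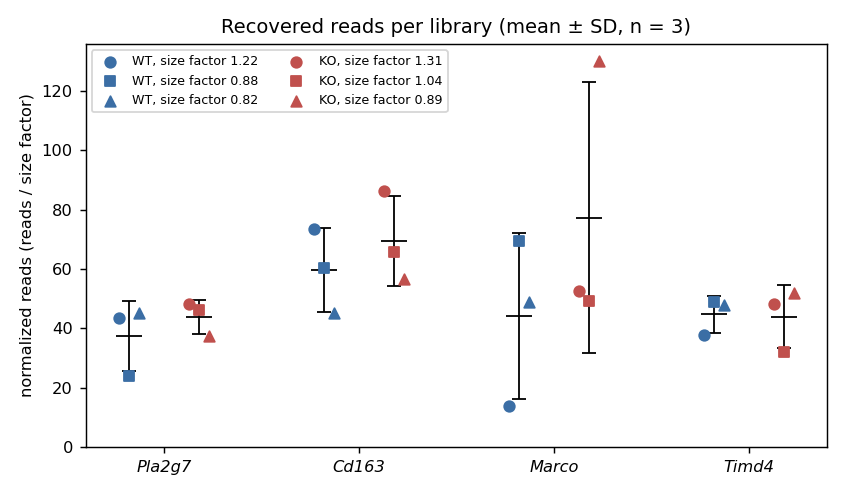
Normalized reads (reads divided by size factor, vertical axis) of *Pla2g7* and the Kupffer cell markers *Cd163*, *Marco* and *Timd4* in the 3 WT (blue) and 3 KO (red) recovered libraries, with mean ± SD in black and symbols by size factor. *Pla2g7* overlaps between genotypes, from 23.9 to 45.2 in WT and from 37.3 to 48.0 in KO.

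Enzymes and receptors that act around PAF and the phospholipids it derives from numbered 15, all in the table, and 0 of them reached a log2 ratio of 0.5. Of all genes averaging at least 1, 11.5% reached it in either direction. *Pafah2*, an intracellular acetylhydrolase of the same family as PAF-AH, had 1540 in WT and 1759 in KO (log2 ratio 0.19). *Pafah1b3*, a catalytic subunit of the other intracellular acetylhydrolase, had recovered normalized reads of 31.8 ± 11.3 (SD, n = 3 libraries) in WT and 22.7 ± 4.65 (SD, n = 3 libraries) in KO, which overlapped (exact permutation test, p = 0.3). *Ptafr*, the receptor of platelet activating factor, had 7.04 in WT and 9.08 in KO, and its recovered reads did not separate the genotypes either (exact permutation test, p = 0.5, n = 3 libraries each).

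*Lcat* (NCBI Gene 16816, chromosome 8 from 105939551 to 105943382, minus strand) was the most abundant gene of the group, and 0.907% of the genes with a mean of at least 1 had a higher mean. Its value was 22982 in WT and 21280 in KO, a KO over WT ratio of 0.926 and a log2 ratio of −0.11. Per kb it stood 3.45-fold above *Apom*, the next gene, in WT and 3.92-fold in KO. A ratio at least as far from 0 was found in 68.5% of all genes.

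*Pltp* (NCBI Gene 18830, chromosome 2 from 164839518 to 164857711, minus strand) had 2059 in WT and 1707 in KO, a KO over WT ratio of 0.829 and a log2 ratio of −0.27. It shares 495 of its 2562 exonic bases with *Ctsa* on the plus strand, the gene of the lysosomal protein cathepsin A, which had 4551 in WT and 4411 in KO (log2 ratio −0.05). Whether reads of either gene were counted for the other was not tested. Of all genes, 34.1% had a ratio at least as far from 0 as that of *Pltp*.

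*Apom* (NCBI Gene 55938, chromosome 17 from 35128997 to 35132050, minus strand), which encodes the lipocalin that holds sphingosine-1-phosphate on HDL, had 5021 in WT and 4100 in KO. Its log2 ratio of −0.29, a KO over WT ratio of 0.817, was the lowest of the group, and 31.0% of all genes lay at least as far from 0. Centred on the median of all genes it was −0.24. Genes that make, export, degrade or sense sphingosine-1-phosphate were in the table for 10 of 10, and 0 reached a log2 ratio of 0.5. The share over all genes averaging at least 1 was 11.5%. *Sphk2*, the sphingosine kinase most expressed here, had 2403 in WT and 1905 in KO (−0.34), and the receptor gene *S1pr1* had 213 and 246 (0.21).

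*Scarb1* (NCBI Gene 20778, chromosome 5 from 125277087 to 125341094, minus strand) had nearly equal values, 6180 in WT and 6160 in KO, a KO over WT ratio of 0.997. Of all genes, 98.7% had a ratio at least as far from 0. *Pdzk1*, which encodes the adaptor that keeps SR-BI at the hepatocyte surface, had 847 in WT and 878 in KO (log2 ratio 0.05). Both genes of this receptor complex thus had values that differed little between the genotypes.

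Hepatic lipase and endothelial lipase differed in sign. *Lipc* (NCBI Gene 15450, chromosome 9 from 70798128 to 70952226, minus strand), the hepatic lipase that hydrolyses triglycerides and phospholipids of HDL and remnants, stood at 2442 in WT against 2145 in KO (log2 ratio −0.19). *Lipg* (NCBI Gene 16891, chromosome 18 from 74939322 to 74961263, minus strand), the endothelial lipase that acts mainly on HDL phospholipids, had 190 in WT and 242 in KO, a KO over WT ratio of 1.27 and a log2 ratio of 0.35. This was the ratio farthest from 0 in the group, and 24.0% of all genes had one at least as far. Per kb of annotated exons *Lipc* stood 28.1-fold above *Lipg* in WT and 19.4-fold in KO. The difference between the lipases could not be tested, since neither has a value per library.

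Sinusoidal endothelial markers, given because *Lipg* is named for endothelium, were in the table for 11 of 12 and none was at 0. None of them reached a log2 ratio of 0.5, against 11.5% of all genes averaging at least 1, and their median was −0.04. Their values summed to 3966 in WT and 3782 in KO. Their part in the ratio of *Lipg* was not tested.

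The other lipases and the proteins that control them were listed for 19 genes, of which 17 were in the table. Their median log2 ratio was 0.05, with 9 above 0 and 8 below. Of the list, 1 gene was at least 0.5 higher and 1 at least 0.5 lower in KO, against 3.23% and 8.32% of all genes. Neither is among those named here. *Lpl*, which encodes lipoprotein lipase, had 115 in WT and 119 in KO. The proprotein convertase genes *Furin* (4968 in WT and 5681 in KO, log2 ratio 0.19) and *Pcsk6* (2562 and 2959, 0.21), whose products cleave endothelial lipase, had small ratios above 0.

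Of the 15 HDL apolipoprotein genes, whose products these enzymes act upon, 11 had a ratio below 0, with a median of −0.20, where 57.5% of all genes averaging at least 1 were below 0. *Apoa1*, the main protein of HDL and the activator of LCAT, had 667133 in WT and 505509 in KO (log2 ratio −0.40), and *Apoa4* had 136017 and 92211 (−0.56). *Saa1* (542 in WT and 4748 in KO, log2 ratio 3.13) and *Saa2* (299 and 4056, 3.76), which encode acute phase proteins carried on HDL, were the exceptions at the upper end. These are RNA values of liver, and they do not give the amount of either protein on HDL. Both genes are close copies, so the division of reads between them is uncertain. 

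Genes of cholesterol efflux and uptake, 18 of 18 in the table, had a median log2 ratio of 0.19, with 12 above 0 and 6 below. Over all genes averaging at least 1 the median was −0.05, and 57.5% were below 0. *Cyp7a1*, the rate-limiting enzyme of bile acid synthesis, had 804 in WT and 374 in KO (log2 ratio −1.11), and *Stard4*, which encodes a cytosolic sterol carrier, had 59.2 and 85.8 (0.54). These were the only 2 genes of the list at least 0.5 from 0, where 11.5% of all genes were that far. The transporter gene *Abca1*, which starts HDL formation, had 835 in WT and 778 in KO (−0.10). Transcription factors known to act on HDL genes numbered 23, and 0 of them reached a log2 ratio of 0.5, against the same 11.5% of all genes. The farthest from 0 was *Srebf2*, the regulator of cholesterol synthesis, with 648 in WT and 911 in KO (0.49). *Hnf4a*, which drives many liver genes, had a ratio of 0.23.

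**Figure D4:**
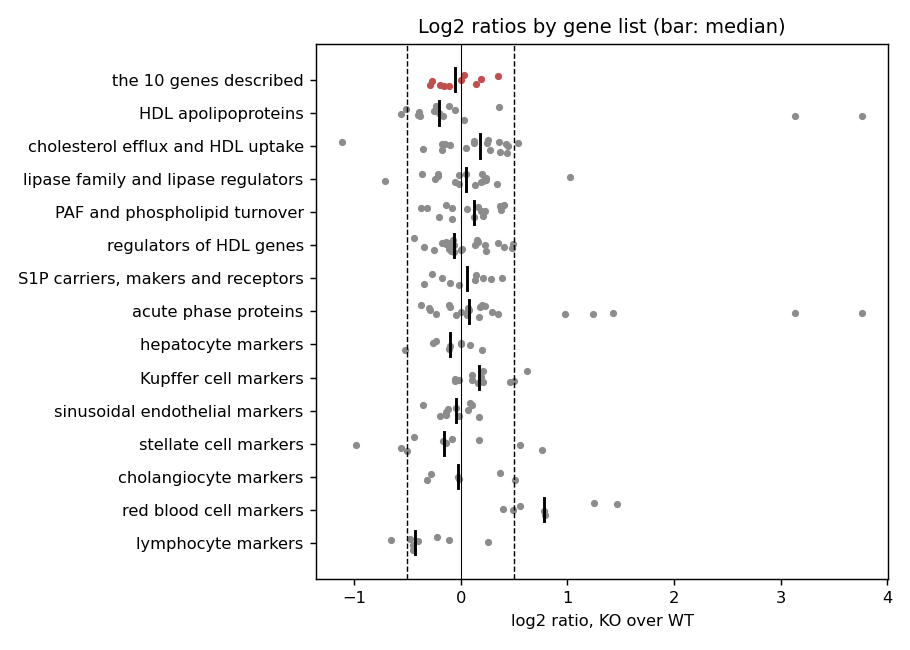
Log2 ratio of KO over WT (horizontal axis) of each gene averaging at least 1 in 15 lists, with the list median as a black bar and dashed lines at ±0.5. The 10 genes described (red) have a median of −0.06, HDL apolipoproteins −0.20, Kupffer cell markers 0.17 and red blood cell markers 0.78.

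The tissue label was checked against markers. Hepatocyte genes dominated, with *Alb* at 1329546 in WT and 1332576 in KO, and the hepatocyte list (9 of 10 in the table) had a median log2 ratio of −0.10. Of its members 1, *Apob*, reached 0.5 in size, with 35805 in WT and 24961 in KO (−0.52). Red blood cell genes were the list that stood farthest from 0, with all 7 above 0, a median of 0.78 and values that summed to 118834 in WT and 180440 in KO. Over all genes averaging at least 1, 57.5% were below 0. Of the 23 acute phase genes, 5 were at least 0.5 higher and 0 at least 0.5 lower in KO, against 3.23% and 8.32% of all genes. The 5 include *Saa1* and *Saa2*, given above. Another of the 5, *Lcn2*, which encodes an iron-withholding lipocalin, had 147 in WT and 396 in KO (1.43). Of the red blood cell genes, *Slc4a1*, the anion exchanger of the red cell membrane, had 46.6 and 129 (1.47), and the globin genes *Hbb-bs* and *Hbb-bt*, which are close copies, had log2 ratios of 0.79 and 0.78. Lymphocyte markers had a median of −0.42 over 8 genes, stellate cell markers −0.16 over 10 and cholangiocyte markers −0.02 over 6. The limma comparison of recovered reads held 4 of the lymphocyte markers and called 0 of them (lowest adjusted p = 0.999). Some were read weakly, such as *Cd3e* with 4, 1 and 16 reads in the WT libraries and 4, 2 and 6 in the KO libraries. The leukocyte gene *Ptprc* had 22.2 in WT and 14.1 in KO (−0.65). Stellate cell and pericyte genes had ratios of both signs, with *Rgs5* at −0.98, *Hgf* at −0.56 and the collagen gene *Col1a1* at 0.76. The part of these genes in the ratios of the 10 genes described was not tested, and *Pla2g7* and the Kupffer cell markers are the ones set side by side by library above.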

How the data were processed

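Liver RNA of 3 WT and 3 KO pools was sequenced as polyA libraries. The study's sequencing service filtered and mapped the reads. Per the labels, the submitters' processing notes name the build mm10 and the tools HISAT2, StringTie, Cufflinks, GATK, Bowtie2 and RSEM, without versions. For each gene the authors deposited a normalized signal per genotype, that is, reads divided by DESeq2 size factors and combined over 3 libraries. They also deposited log2 ratios, p-values and adjusted p-values of their own comparison, which are not used here. The deposited percent values of clean, ribosomal and mapped reads and the read totals were taken per library. Splicing event totals were not used.

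Log2 ratios were calculated from both genotype values without a pseudocount, and they equal the shrunken ratios. The share of genes past a ratio was taken over the 14106 genes averaging at least 1. Groups came from the genotype label. Exonic lengths and positions came from GENCODE M21 on GRCm38, the same build as mm10, and promoters from RefSeq for 8 of 10 genes. No window was used for *Scarb1*, and windows on chromosome 18, where *Lipg* lies, were left out.

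Reads per library were recovered as follows. What 1 read adds to a mean was read, library by library, from values that recur in 20 or more genes, and the genotype from the column that was higher in all of those genes. All sets of 6 whole numbers up to a sum of 400 normalized reads were enumerated, with a tolerance of 2.5 times the rounding at 15 digits, a width set after the table was seen. A single set was left for 8027 of 8081 genes (99.3%). The step was tested on simulated data. Where the ratio was at least 0.1 in size, the median gene with a sum of 200 or more had a deposited ratio of 0.811 times the recovered one, so deposited ratios understate differences at that level. For stronger genes this was not measured.

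Genes with a sum of at least 60 were compared with limma 3.58.1 (R 4.3.3) on log2(normalized reads + 1), with Benjamini-Hochberg adjustment over the 3301 genes. Single genes were compared with exact permutation tests (scipy 1.17.1). P-values set the difference between genotypes against the spread between pools of mice, which does not show the spread between single animals. Intervals cover counting error only.

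The members and lists were chosen with earlier results of these data known. Genes named beside the members are the list genes averaging at least 10 with a log2 ratio of at least 0.5 in size, up to 3 per list, and the nearest 2 coding genes with a mean of at least 1 on each side of the paraoxonases. The other list genes were named for their role after their values were seen. Some genes that this rule picks are not reported here.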

Additional observations from a re-analysis of the deposited data

How the results depend on the processing

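The count of genes past a log2 ratio of 0.5 among the 10 was 0 and stayed at 0 with a limit of 1 and with median centring, and it was 3 with a limit of 0.25. Their median log2 ratio of −0.06 was −0.11 over the 9 genes averaging at least 100, since *Pla2g7* left. It moved by less than counting error with pseudocounts of 1 and 10 and with centring. Of 31 alternatives for the ratios of single genes, 4 moved the ratio by more than its counting interval, the largest move was 0.05, and *Scarb1* changed sign under centring. Centring moved the split of all genes past 0.5 from 455 higher and 1174 lower to 613 and 972. The share of all genes past 0.5 was 11.5%, and 5.86% among genes averaging at least 100.

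The limma comparison called 1 gene, and 0 with all resolved genes that have a sum of at least 10, where more genes are adjusted for. Leaving out 1 library gave between 0 and 1 called genes (0 for every library but the WT one of size factor 1.22). In the same order of settings 64 and 165 genes had an unadjusted p under 0.05. Adding a term shared by the WT library of size factor 1.22 and the KO library of size factor 1.31 gave 242. What sets these 2 libraries apart was not tested. The limma difference of *Pla2g7*, 0.27 with all libraries, ranged from −0.02 to 0.43 when 1 library was left out, and its difference in normalized reads, 6.40, from −0.391 to 10.3. Both were below 0 only without the WT library of size factor 0.88, and the cause was not tested. No paired analysis was possible because the labels give both genotypes only pool number 2 in common and the recovered libraries carry no number.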
